A study of Mus musculus with 2 samples.

Results

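The miR-183/96/182 cluster consists of the miRNA genes Mir183, Mir96 and Mir182, whose hairpins lie close together on 1 strand of mouse chromosome 6. Its 3 members were taken as the rows of the count tables whose Ensembl identifiers carry these symbols in the GENCODE annotation, out of 1973 annotated miRNA genes. The rule itself uses no count. The data are small RNA libraries of RNA under 30 nucleotides from kidneys of B6NCrl mouse embryos at 14.5 days of gestation. There is 1 group, embryonic kidney, with no treatment or engineered allele in the labels, and 2 biological replicates, each made from 2 kidneys. The labels give a single pup and a separate collection day for each replicate, but also material of both sexes and the same donor identifier, so the number of embryos behind each library is not settled. Whole kidneys were used, so fewer cells that make a miRNA and less of it per cell cannot be told apart.

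The cluster is transcribed as a single long primary RNA. The nuclear enzyme Drosha cuts the hairpins out of that RNA, and the cytoplasmic enzyme Dicer trims each to a duplex of 2 mature arms, of which an Argonaute protein keeps mostly 1. Bases 2 to 8 of the kept arm, the seed, pair with target mRNAs and repress them. The cluster is best known from sensory organs, where it is abundant in hair cells, photoreceptors and sensory neurons, and mutations in the seed of miR-96 cause progressive hearing loss in mice and humans. In human cancer cells, miR-96 and miR-182 have been described as repressors of the transcription factor FOXO1.

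All 3 members have an entry in the RefSeq table (build GRCm38.p6, the assembly also called mm10). The mature arms are shown because the seeds decide which mRNAs each can pair with, and those of the 5p arms differ at only 1 or 2 bases. Each is written 5′ to 3′ with the seed in capitals.
miR-182-5p, chr6:30165962-30165986, minus strand: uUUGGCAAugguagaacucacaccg
miR-183-5p, chr6:30169711-30169732, minus strand: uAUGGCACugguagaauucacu
miR-96-5p, chr6:30169506-30169528, minus strand: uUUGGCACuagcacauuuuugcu
miR-182-3p, chr6:30165923-30165943, minus strand: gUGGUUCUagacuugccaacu
miR-183-3p, chr6:30169672-30169693, minus strand: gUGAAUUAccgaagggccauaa
miR-96-3p, chr6:30169465-30169486, minus strand: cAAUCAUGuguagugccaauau

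The 5p arms carry 3 different seeds that are alike in bases 3 to 7, which read UGGCA in each. Counting from 1 at the 5′ end, the seed of miR-182-5p differs from that of miR-96-5p by A8C. The seed of miR-183-5p differs from that of miR-96-5p by A2U, and miR-182-5p differs from miR-183-5p by U2A and A8C. Over the whole arm, seed included, miR-182-5p and miR-183-5p are the closest pair. They hold the same base at 18 of 22 positions compared from the 5′ end, with UGGUAGAA in common at positions 9 to 16. The figure for miR-182-5p and miR-96-5p is 12 of 23 positions, and for miR-183-5p and miR-96-5p 13 of 22.

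Few other mouse miRNAs carry this core. Among 1738 mature sequences in the table, 5 (0.288%) have UGGCA at bases 3 to 7, namely the 3 5p arms of the cluster, miR-1271-5p and miR-7022-5p. Of the pair outside the cluster, miR-1271-5p has the full seed of miR-96-5p, and no other mature sequence has the seed of miR-182-5p or miR-183-5p. Among the 3p arms, miR-96-3p has its seed in common with miR-3475-5p, whose gene Mir3475 was detected at a mean of 4.69 CPM. The gene of miR-1271-5p, given as Gm24195, and Mir7022 each had 0 counts on their own strand in both replicates. A count of 0 leaves room for 3 counts, or 0.577 CPM in replicate 1 and 0.814 CPM in replicate 2, where CPM stands for counts per 1000000 own-strand counts of all miRNA genes. Of the genes with this core, those of the cluster alone had counts on their own strand. Opposite-strand counts of Gm24195 and Mir7022 are not reported here.

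The hairpins are shown because the counts were made over them as wholes. The 5p and the 3p arm are in capitals, in that order.
Mir183 hairpin, chr6:30169668-30169737, minus strand: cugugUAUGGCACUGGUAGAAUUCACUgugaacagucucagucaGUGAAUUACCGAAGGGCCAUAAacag
Mir96 hairpin, chr6:30169446-30169551, minus strand: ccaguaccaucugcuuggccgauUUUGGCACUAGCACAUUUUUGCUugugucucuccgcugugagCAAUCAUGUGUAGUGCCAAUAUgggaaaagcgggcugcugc
Mir182 hairpin, chr6:30165918-30165992, minus strand: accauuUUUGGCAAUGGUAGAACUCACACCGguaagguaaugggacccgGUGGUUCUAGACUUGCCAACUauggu

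The table has 1 count per hairpin and strand, so the part of each arm in a member's count is not known. The annotated hairpins differ in length, at 75 bases for Mir182, 70 for Mir183 and 106 for Mir96, because more flanking sequence is annotated around Mir96. Predicted folding energies (RNAfold, minimum free energy of the annotated sequence) were -29.9 kcal/mol for Mir182, -26.2 for Mir183 and -47.9 for Mir96, and a longer sequence can form more pairs. None of the members shares a stretch of 21 bases, on either strand, with another annotated miRNA hairpin.

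Along the transcribed strand Mir183 comes first, Mir96 follows after 116 bases, and Mir182 lies a further 3453 bases downstream. The whole cluster spans 3820 bases, from 30165918 to 30169737 on chromosome 6, and no other gene annotated in GENCODE release M21 overlaps its hairpins. The nearest annotated gene is Rncr4, a long noncoding RNA described in mouse retina, which lies on the opposite strand and starts 3155 bases from the Mir183 end. On the other side the nearest is Nrf1, a transcription factor gene on the opposite strand that ends 12459 bases away.

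**Figure D1:**
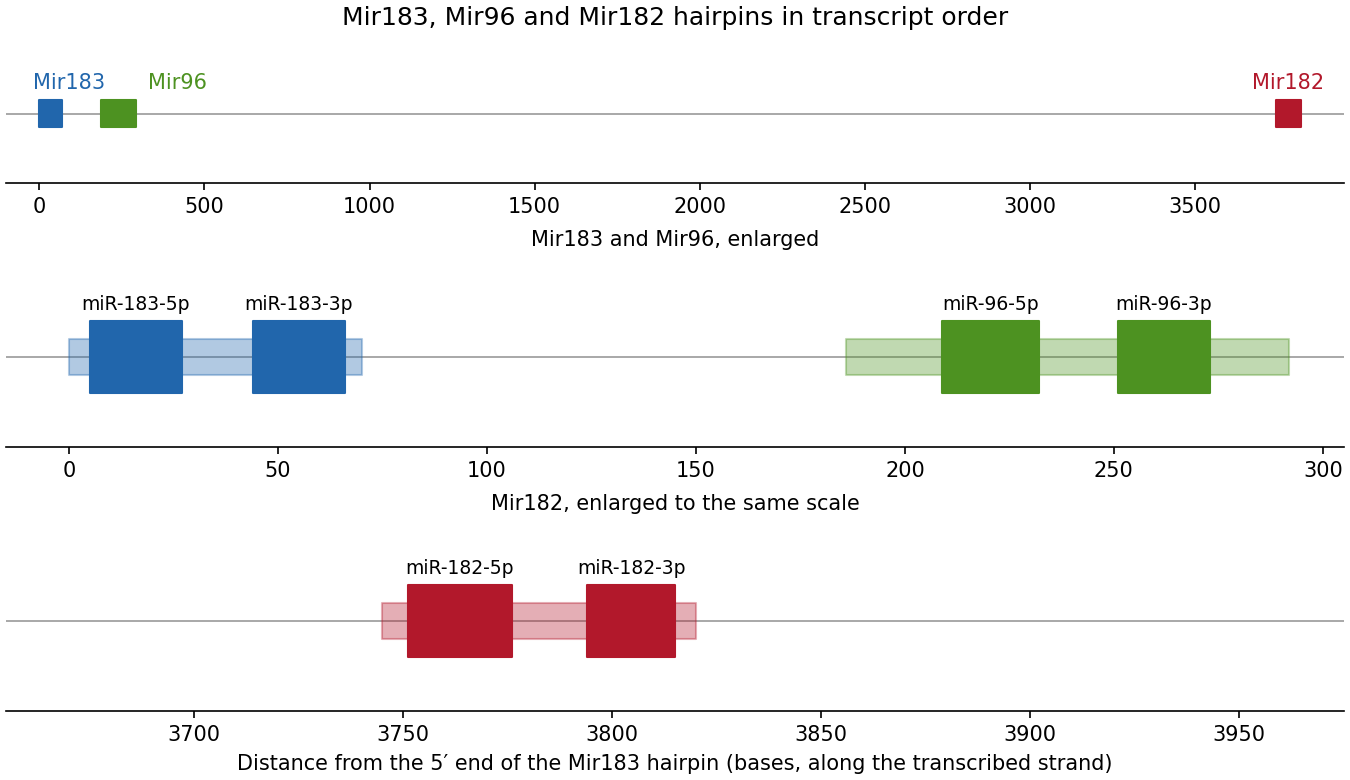
Positions of the 3 hairpins along the transcribed strand, in bases from the 5′ end of the Mir183 hairpin. Pale bars in the enlarged panels are hairpins and dark bars are annotated mature arms. Mir183 and Mir96 lie 116 bases apart, and Mir182 stands alone 3453 bases beyond Mir96.

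The libraries held 5202588 counts in replicate 1 and 3683978 in replicate 2 on the strand of miRNA genes, and 345 genes had at least 10 counts in each, the minimum for calling a gene detected. Multimapping reads, 28.3% and 27.5% of all reads, were tallied apart from the genes. Intervals given here are exact binomial 95% intervals that cover counting error only. They treat each read as a molecule of its own, which amplified reads with no molecular tag are not. Nothing in the labels settles how far the SD between the 2 libraries is technical.

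All 3 members were detected in both libraries. Mir182 had 25705 counts in replicate 1 and 17105 in replicate 2, or 4941 CPM (interval 4881 to 5001) and 4643 CPM (4574 to 4713). Mir183 had 13592 and 8734 counts, or 2613 CPM (2569 to 2657) and 2371 CPM (2321 to 2421). Mir96 had 5998 and 4200 counts, or 1153 CPM (1124 to 1182) and 1140 CPM (1106 to 1175). The order Mir182, Mir183, Mir96 was the same in both libraries, and no value of 1 member overlapped those of another.

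The means were 4792 ± 211 CPM for Mir182, 2492 ± 171 CPM for Mir183 and 1146 ± 9.06 CPM for Mir96 (SD, n = 2). Together the members held 0.871% of counts in replicate 1 (0.863 to 0.879) and 0.815% in replicate 2 (0.806 to 0.825). By mean CPM, Mir182 was at rank 39, Mir183 at rank 56 and Mir96 at rank 83 of all genes in the tables. The median of the 345 detected genes was 114 CPM, so that the mean of Mir182 was 42.0 times and that of Mir96 10.1 times the median, as counts per gene. The most abundant gene, Mir10a, which is encoded in the Hoxb cluster, averaged 144007 ± 2037 CPM (SD, n = 2), 17.1 times the sum of the 3 members.

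**Figure D2:**
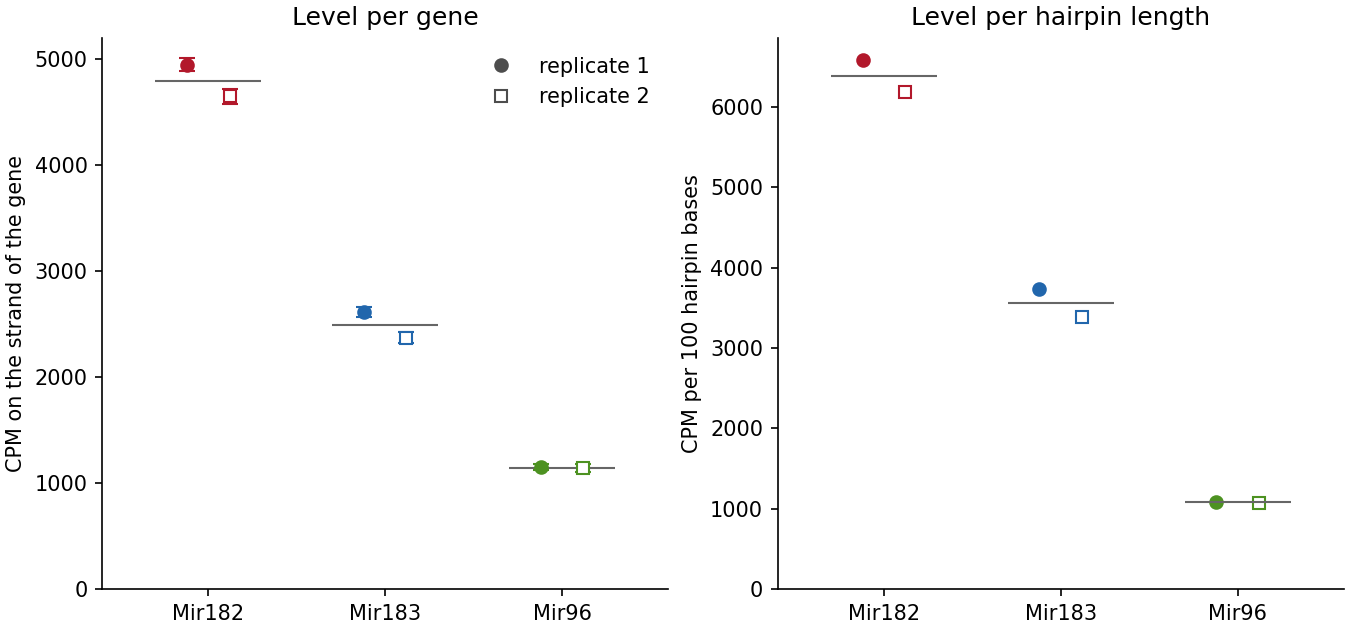
Levels of Mir182, Mir183 and Mir96 in each replicate, as CPM per gene on the left and as CPM per 100 bases of annotated hairpin on the right. Lines are means of 2 replicates and bars on the left are exact 95% counting intervals. On both scales Mir182 is highest and Mir96 lowest in each library.

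**Figure D3:**
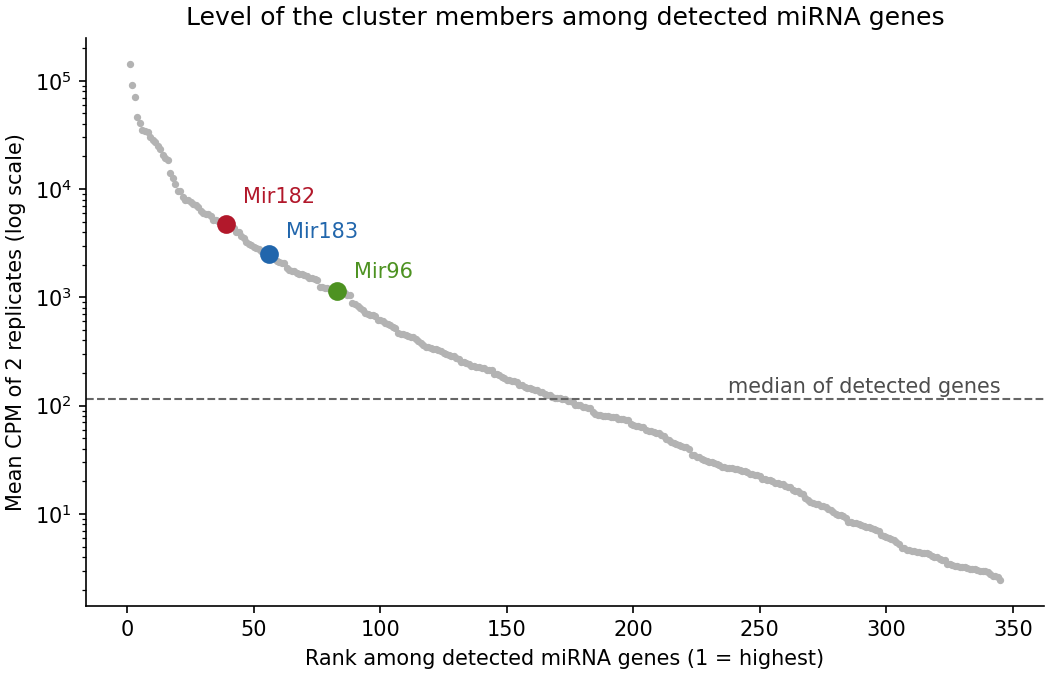
Mean CPM (log scale) of the 345 detected miRNA genes by rank, with the members in colour and the median of 114 CPM as a dashed line. The 3 members lie above the median, between 1146 and 4792 CPM.

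The proportions within the cluster were nearly alike in the 2 libraries. Mir182 held 56.8% of the cluster's counts in replicate 1 and 56.9% in replicate 2, a mean of 56.8% ± 0.136 (SD, n = 2). Mir183 held 30.0% and 29.1%, with a mean of 29.5% ± 0.659. Mir96 held 13.2% and 14.0%, with a mean of 13.6% ± 0.523. A read of a small RNA library covers a mature arm rather than a stretch of a long gene, so counts per gene compare read numbers without a length correction, and values per hairpin base are given beside them.

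As counts, Mir182 exceeded Mir96 by 4.29-fold in replicate 1 (4.17 to 4.41) and 4.07-fold in replicate 2 (3.94 to 4.21), a log2 difference of 2.06 ± 0.05 of log2(CPM + 1) (SD, n = 2). Mir182 exceeded Mir183 by 1.89-fold (1.85 to 1.93) and 1.96-fold (1.91 to 2.01), a log2 difference of 0.94 ± 0.04. Mir183 exceeded Mir96 by 2.27-fold (2.20 to 2.34) and 2.08-fold (2.00 to 2.16), a log2 difference of 1.12 ± 0.09. Each difference was larger than 10 times the SD between replicates. Neither that SD nor the counting intervals cover a difference in how readily each sequence is read, if it is alike in both libraries. The folds are therefore ratios of counts, and how far they match ratios of molecules was not tested. An exact test over 2 libraries cannot fall below p = 0.05, so none was run over samples.

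Per hairpin base the order was the same and the distance of Mir96 from the others grew. Per 100 bases, Mir182 averaged 6389 ± 281 CPM, Mir183 3560 ± 244 CPM and Mir96 1082 ± 8.55 CPM (SD, n = 2). On this scale Mir182 exceeded Mir96 by 5.91 ± 0.213-fold, Mir183 exceeded Mir96 by 3.29 ± 0.20-fold and Mir182 exceeded Mir183 by 1.80 ± 0.0444-fold. The member with the lowest count is also the one with the longest annotated hairpin.

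Small shifts in the proportions were larger than counting error. In a two-sided Fisher's exact test of the libraries, adjusted over the 3 pairs, the Mir183 to Mir96 ratio was lower in replicate 2 by a log2 value of -0.12 (adjusted p = 0.00131). The Mir182 to Mir96 ratio was lower by -0.07 (Fisher's exact test, adjusted p = 0.0348), and the Mir182 to Mir183 ratio was higher by 0.05 (Fisher's exact test, adjusted p = 0.0387). These tests compare 2 libraries and take no spread between animals into account. The order of the members was the same in both libraries despite these shifts.

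Each member was slightly lower in replicate 2 than in replicate 1. With totals scaled by TMM, the log2 ratio was -0.14 for Mir183 (interval -0.18 to -0.10), -0.09 for Mir182 (-0.11 to -0.06) and -0.01 for Mir96 (-0.07 to 0.04). In a two-sided exact binomial test of the libraries, adjusted over the 345 detected genes, Mir183 (adjusted p = 2.37e-11) and Mir182 (adjusted p = 6.14e-09) passed as lower in replicate 2, and Mir96 did not pass (adjusted p = 0.79). That is 2 of 3 members, where 53.9% of detected genes passed in either direction, 27.2% as lower and 26.7% as higher. Of the 88 detected genes with a mean of at least 1000 CPM, whose counting error is similarly small, 78 passed. None of the members had a log2 ratio of 1 or more in size, as 3.19% of detected genes did while passing the test. When a coefficient of variation of 0.2 between animals was assumed, edgeR's exact test gave each of the 3 an adjusted p of 1.

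In size, these ratios were below that of most detected genes, whose median absolute log2 ratio was 0.24. Over the 88 detected genes of at least 1000 CPM the median was 0.134. Mir183, at -0.136, was not below this in size, while Mir182 and Mir96 were. A larger absolute ratio was found in 233 genes for Mir183, in 265 for Mir182 and in 339 for Mir96. The coefficient of variation between replicates was 6.86% for Mir183, 4.39% for Mir182 and 0.79% for Mir96. Its median was 11.4% over all detected genes and 6.49% over those of at least 1000 CPM. With 2 replicates each of these SDs has 1 degree of freedom, so that the low value of Mir96 is poorly determined, and 13 detected genes had a lower one.

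**Figure D4:**
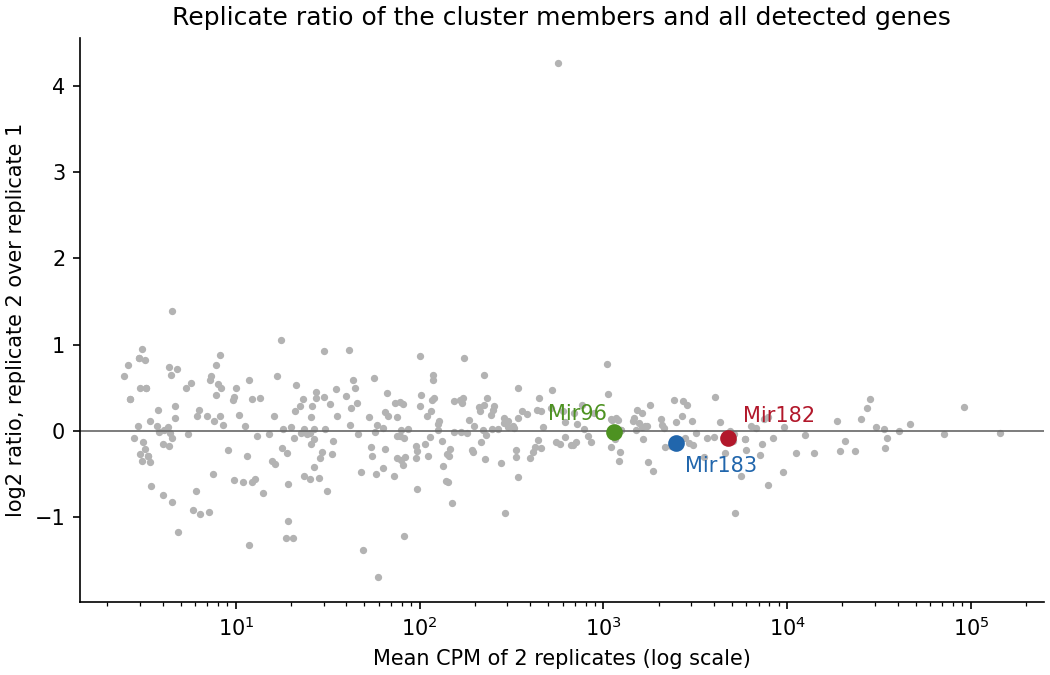
The log2 ratio of replicate 2 over replicate 1, with TMM-scaled totals, against mean CPM (log scale) for the 345 detected genes in grey and the members in colour. The members lie between -0.14 and -0.01, near the line of no difference.

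Almost no reads came from the strand opposite to the members. Mir182 had 5 opposite-strand counts in replicate 1 and 3 in replicate 2, Mir183 had 3 and 2, and Mir96 had 0 and 0. For Mir96 the exact interval around the count of 0 reaches an opposite-strand share of 0.0615% in replicate 1 and 0.0878% in replicate 2. Over the cluster the share was 0.0177% (0.00762 to 0.0348) in replicate 1 and 0.0166% (0.00540 to 0.0388) in replicate 2. Over all miRNA genes it was 1.93% and 1.80%, but this pooled share is uneven between genes. Mir142b had 1684 and 1151 opposite-strand counts and 0 on its own strand, and Mir203 had 25 and 21 on the opposite strand. Mir143, Mir429, Mir200b and Mir200c had 0 opposite-strand counts in both libraries, so a low share is not particular to the cluster.

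With 2 libraries, other genes can be likened to the members only by level, here by the distance over log2(CPM + 1) in both libraries. Nearest to Mir182 were Mir181c, Mir18 of the miR-17 cluster, and Mir200b of the epithelial miR-200 family. Mir181c averaged 4825 ± 73.7 CPM (SD, n = 2), and its values lay within the range of the Mir182 values. Nearest to Mir183 were Mir425 at 2331 ± 197 CPM, Mir196a-2 of the Hox clusters at 2495 ± 126 CPM and Mir324 at 2777 ± 109 CPM. Nearest to Mir96 were Mir107 at 1161 ± 57.8 CPM, Mir28a at 1112 ± 65.7 CPM and Mir369 at 1176 ± 86.9 CPM. The counts of Mir196a-2 and Mir107 are uncertain, as both have 21 bases or more in common with a further miRNA hairpin. In rank, Mir182 stood between Mir181c and Mir200b, Mir183 between Mir196a-2 and Mir27b, and Mir96 between Mir107 and Mir28a.

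Markers of other cell types were set beside the cluster to describe what the libraries held. The miR-200 family maintains epithelial identity by repressing Zeb1 and Zeb2, and its 5 genes were all detected. The cluster's sum was 0.325 times theirs in replicate 1 and 0.347 times in replicate 2, and the family summed to 26800 and 23488 CPM. By single genes, Mir182 at 4792 ± 211 CPM was close to Mir200b at 4619 ± 226 CPM and Mir200c at 5062 ± 308 CPM (SD, n = 2). Mir96, the lowest member, was above Mir141 at 719 ± 26.1 CPM and Mir200a at 706 ± 44.7 CPM, and Mir429 was above all of these at 14037 ± 1789 CPM. Of the 5, 4 passed as lower in replicate 2 in the exact binomial test, where 27.2% of all detected genes did. That share includes many genes of low count. Of the 88 detected genes of at least 1000 CPM, which include Mir429, Mir200c and Mir200b, 78 passed in either direction. Mir200b, Mir200a and Mir429 also lie in 1 locus. The log2 ratios of the 4 that passed ran from -0.26 for Mir429 to -0.10 for Mir200b. The family's median ratio was -0.12, that of all detected genes 0.02, and those of the cluster's members -0.14, -0.09 and -0.01. Mir141, at 0.08, did not pass (exact binomial test, adjusted p = 0.0622). Mir203 and Mir205 of stratified epithelium, at 1650 ± 74.3 and 668 ± 52.5 CPM, both passed as lower in replicate 2, with ratios of -0.09 and -0.16.

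Neural markers were nearly absent on their own strand. The cluster had 45295 counts in replicate 1 and 30039 in replicate 2, against 7 in each for Mir124a-1, Mir124a-2, Mir124a-3, Mir9-2 and Mir9-3 together, miRNAs of neurons and neural progenitors. The 3 Mir124a genes were at 0. All 5 have sequence in common with further hairpins, so that multimapping reads could hold their arms, and these values do not show that neural cells were absent. Of 4 kidney tubule genes 3 were detected, each below every member of the cluster. Mir192 averaged 174 ± 70.1 CPM and passed as higher in replicate 2, as did Mir194-2, which averaged 100.3 ± 41.3 CPM. Mir204 averaged 146 ± 14.8 CPM and passed as lower, and Mir194-1 was not detected. Mir194-2 shares sequence with Mir194-1, so its count is uncertain. The exact binomial test called 53.9% of the 345 genes in either direction, with 26.7% higher in replicate 2. The 3 tubule genes are too few to set against these shares.

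Other lists stood on either side of the cluster. The endothelial Mir126a was at 46469 ± 1824 CPM, with 21 bases or more in common with a further hairpin, and the 5 stromal and smooth muscle genes, led by Mir143 at 18645 ± 1069 CPM, summed to 24805 and 25420 CPM. In that list 2 genes passed as higher and 1 as lower in replicate 2, with a median ratio of -0.06, and these 3 of 5 are near the 53.9% of all detected genes that passed. Mir214 was at 6006 ± 667 CPM, Mir145a at 383 ± 35.8 CPM, and Mir199a-2 and Mir199a-1, which share sequence, at 75.5 ± 2.29 and 3.32 ± 0.471 CPM. The leukocyte gene Mir223 was at 267 ± 1.86 CPM. Mir142b, also of leukocytes, had 0 counts on its own strand and 1684 in replicate 1 and 1151 in replicate 2 on the opposite strand. Levels below that of Mir223 were found for the erythroid genes Mir451a and Mir144 at 81.9 ± 46.4 and 31.4 ± 10.6 CPM, and for Mir206 of skeletal muscle at 62.9 ± 13.3 CPM. The count of Mir451a is uncertain, as it has 21 bases or more in common with a further hairpin. The other skeletal muscle genes, Mir133a-1, Mir133a-2 and Mir1a-1, had 0 counts in both libraries, and all 3 have sequence in common with further hairpins, as the neural genes do. The erythroid genes and Mir206 passed as lower in replicate 2, as 27.2% of all detected genes did, and Mir223 did not pass. These lists hold too few detected genes to set against that share. The hepatocyte gene Mir122 had 56.3 CPM in replicate 1 and 1074 CPM in replicate 2, the replicate in which the cluster's sum was lower by a log2 value of -0.09. Its part in that difference was not tested. Mir142, Mir9-1 and Mir1a-2 were not analysed here.

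Beside other loci with 3 detected genes, the members of the cluster were close in level. Grouping miRNA genes on 1 strand with gaps of at most 10 kb gave 6 such loci, this cluster included. Genes under the detection minimum were left out of a locus, so its difference and order cover detected genes only. The highest and the lowest gene differed by 2.06 on the log2(CPM + 1) scale in this cluster, and by more in 4 of the 5 others. The values were 3.20 for Mir106b, Mir93 and Mir25, 4.31 for Mir200b, Mir200a and Mir429, 5.39 for Mir341, Mir1188 and Mir370, and 6.19 for Mir23a, Mir27a and Mir24-2. The locus with a smaller difference, Mir302b, Mir302a and Mir302d at 0.79, averaged only 6.28 to 11.8 CPM per gene. Per hairpin base, a scale added after the values were seen, the difference was 2.56 in this cluster, and again 4 of the 5 others were larger. Mir24-2 shares sequence with another gene, so the last of these loci is uncertain. With 6 loci this is a description, and no test was made.

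The order of levels was the same in both libraries in each of the 6 loci. In 1 of the 5 others, Mir200b, Mir200a and Mir429, the last detected gene along the transcribed strand was highest and the middle one lowest. The same held in the cluster, where Mir182 comes last and Mir96 in the middle. In the Mir200b locus, Mir200b had 4619 ± 226 CPM, Mir200a 706 ± 44.7 CPM and Mir429 14037 ± 1789 CPM (SD, n = 2). The replicate log2 ratios of the cluster's members spanned 0.12. The range was 0.06 in Mir341, Mir1188 and Mir370, 0.16 in Mir200b, Mir200a and Mir429, and from 0.35 to 0.38 in the other 3 loci. Of the locus Mir23b, Mir27b and Mir24-1, Mir23b had 23449 ± 2660 CPM and Mir27b 2425 ± 427 CPM, and Mir24-1 was not analysed here.

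**Figure D5:**
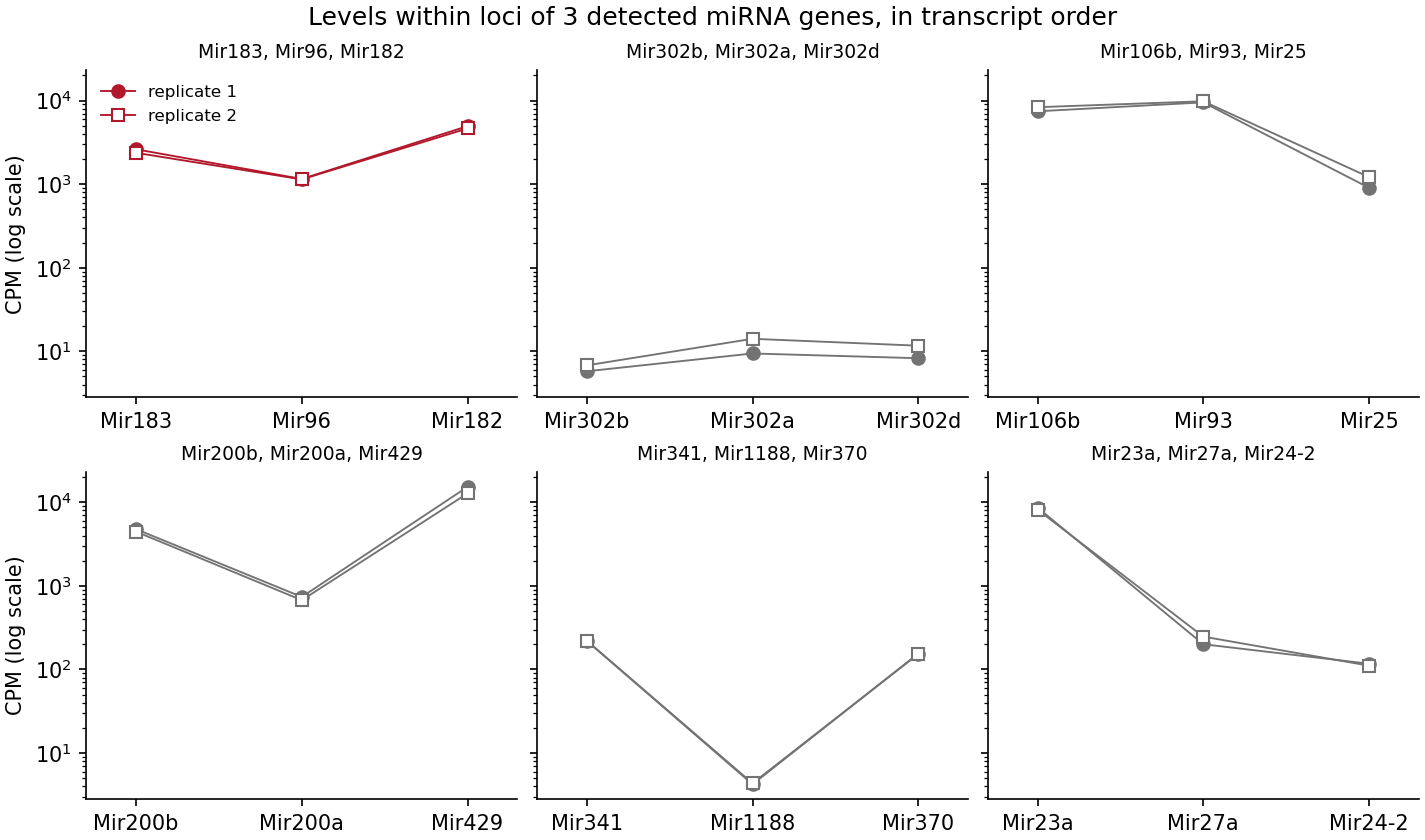
CPM (log scale) of each gene in the 6 loci of 3 detected miRNA genes, in order along the transcribed strand, with filled circles for replicate 1 and open squares for replicate 2. In the cluster, in red, the levels span a log2 difference of 2.06, and in both the cluster and the Mir200b locus the middle gene is lowest and the last is highest.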

How the data were processed

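The authors deposited, for each library, a table of raw counts over annotated miRNA hairpins, with no normalization. The descriptions that the authors deposited with the files name the assembly mm10 and GENCODE release M4. The aligner and counter were not given in the sources used here. There are 3 columns of counts, for both strands, the strand of the gene and the opposite strand. Another 4 rows, for unmapped, multimapping, ambiguous and unassigned reads, held 49.2% of all reads in replicate 1 and 44.6% in replicate 2 and were left out. Own-strand counts were used, with totals of 5202588 and 3683978.

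CPM and shares were computed from these counts, and 1 CPM was added before taking log2. Symbols and positions came from GENCODE release M21, later than the authors' release but on the same assembly, which held 1894 of the 1973 identifiers. With 1 group, edgeR's quasi-likelihood test had nothing to compare. Libraries were compared by an exact binomial test over all detected genes with TMM-scaled totals and Benjamini-Hochberg adjustment, with calls at adjusted p-values under 0.05. Proportions were compared by Fisher's exact test. The calculations were tested on simulated data. The members and lists were chosen with earlier results of these data known. Named genes are the members, the 3 nearest in level to each, the marker lists, 3 loci of clustered miRNA genes and the most abundant gene. The other loci of 3 detected genes, Gm24195, Mir7022 and Mir3475 were added to the named genes after seeing their values. Alternatives tried were other totals, count minimums, pseudocounts, unstranded counts, a scale per hairpin base, other gaps between hairpins, an edgeR exact test and each replicate alone. Work was done in Python 3.11.15 with pandas 2.3.3, numpy 2.4.6, scipy 1.17.1 and matplotlib 3.10.9, in R 4.3.3 with DESeq2 1.42.0 and edgeR 4.0.16, and with RNAfold 2.7.2.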

Additional observations from a re-analysis of the deposited data

How the results depend on the processing

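The order Mir182, Mir183, Mir96 held under every alternative run for levels and differences, but most of these could not have changed it. Other totals and pseudocounts act on all members of a library alike, and single replicates restate the values. Per hairpin base, Mir96 was bound to stay lowest, as it has the lowest count and the longest hairpin. With all reads as denominator, tallied ones included, the cluster's share was 0.439%, and without the most abundant gene it was 0.985%, both by construction. With unstranded counts Mir96 was at 1125 CPM, outside its small SD. Per hairpin base, Mir182 exceeded Mir183 by 0.84, Mir182 exceeded Mir96 by 2.56 and Mir183 exceeded Mir96 by 1.72 on the log2 scale, since the hairpins differ in length. With an assumed variation of 0.2, edgeR's exact test called neither Mir183 (-0.14) nor Mir182 (-0.086), and it called 2 genes of all detected, in place of 186 by adjusted p alone or 11 with a log2 ratio of 1 or more. With that ratio, 5 of 266 genes passed at a minimum of 50 counts, 14 of 392 at 5 and 16 of 716 at 1 in either library. The other loci of 3 detected genes with a larger difference were 3 of 5 at a gap of 5 kb and 5 of 6 at 50 kb. They were 3 of 3 at a minimum of 50 counts, in place of 4 of 5. Either replicate alone gave a cluster share of 0.815% or 0.871%, which with 2 replicates only restates the values. No paired analysis was possible because there is 1 group. Depth does not limit the members' levels, whose counting intervals are narrow, but 2 libraries limit every statement on spread.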
